A study of Mus musculus and synthetic construct with 32 samples.

Results

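The 10 genes described here mark or act in pregranulosa cells, the somatic cells that surround germ cells in the newborn ovary. They were chosen by name: the ligands Wnt4, Rspo1 and Bmp2, the secreted antagonist Fst, the receptor Lgr5, and the transcription factors Foxl2, Irx3, Irx5, Runx1 and Emx2. All 10 were listed in sense exons in the ovary table, among 19463 genes, and in each of the other mouse tables, where 22750 genes were listed in at least 1 table. Sense introns were listed for 9 of the 10, all but Foxl2. A mean normalized count of at least 10 in sense exons was reached by 10 members in the ovary, by 8 in each testis table of total RNA and by 9 in the m6A table.

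The series measured RNA from mice without Ythdc2, the gene of a helicase whose YTH domain binds N6-methyladenosine (m6A). Ovaries at birth (P0) gave 2 Ythdc2 -/- and 2 Ythdc2 +/- libraries. Testes at P12 gave 3 -/- and 3 +/- libraries, and testes at P8 gave 2 -/-, 1 +/- and 1 +/+ library. The m6A libraries came from testes that were +/+ at P8 and P20 and +/- at P12, and of these the comparison of 1 immunoprecipitate with 1 input at P8 was used. All mice were C57BL/6J. Per the labels' protocols there were 2 knockout lines, one lacking exon 7 and one with stop codons placed in it, and the line behind a given library is not named. Both were made by genome editing of embryos, so the lesion is not restricted to germ cells. The controls of the ovary and of P12 testis were heterozygous, so those comparisons hold no wild type. The labels do not say whether a library came from 1 animal or from a pool, so the authors' p-values measure a spread between libraries that may be partly technical.

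In the mouse fetal ovary, pregranulosa cells arise from bipotential supporting cells and from the surface epithelium. RSPO1 and WNT4 act through beta-catenin to keep the supporting cells on the ovarian path, FOXL2 and RUNX1 maintain granulosa identity, and LGR5 marks cells of the surface epithelium and cortical pregranulosa cells. The Iroquois factors IRX3 and IRX5 act in the contact between pregranulosa cells and germ cells, EMX2 is needed for the gonad to form, and FST, a binding protein for activins, acts downstream of WNT4.

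Each table was the authors' own comparison, with 1 mean normalized count over all its libraries, a log2 fold and an adjusted p per gene, and no value per library was available here. No SD, standard error or count of overlapping libraries can therefore be given beside a value. The mean counts of all features summed to 23754190 in the authors' deposited table for the ovary, 42229589 for P8, 37066681 for P12 and 24879917 for m6A. The sense exons of Ythdc2 had a log2 fold of -0.43 in the ovary (adjusted p = 0.584), -1.29 in P12 testis (adjusted p = 9.87e-25), and in P8 testis -0.50 over wild type and -0.24 over heterozygote (both adjusted p = 1.00), in the authors' deposited tables from DESeq2. Both lesions sit in a single exon, and the tables count the gene as a unit, so these values do not test the labels.

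The start sites of Foxl2 and Emx2 are shown first because RNA was measured on both sides of each. A noncoding gene lies on the upstream side of each in genome coordinates, Foxl2os by Foxl2 and Emx2os, annotated as antisense RNA, by Emx2. Its values are given below beside its neighbour's. The strands of these noncoding genes were not at hand, so position alone is described. The Emx2 window lies partly inside the stretch of Emx2os. The windows are the 250 bases before the RefSeq start of each gene on GRCm38, the build also called mm10, written 5′ to 3′ on the plus strand, with capitals marking CpG dinucleotides.
Foxl2, chr9:98955357-98955606, plus strand: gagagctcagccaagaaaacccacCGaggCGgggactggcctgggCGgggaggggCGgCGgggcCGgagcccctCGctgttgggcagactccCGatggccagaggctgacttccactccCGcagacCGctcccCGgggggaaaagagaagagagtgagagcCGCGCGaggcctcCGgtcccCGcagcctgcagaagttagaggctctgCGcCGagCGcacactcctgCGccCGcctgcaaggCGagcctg
Emx2, chr19:59458440-59458689, plus strand: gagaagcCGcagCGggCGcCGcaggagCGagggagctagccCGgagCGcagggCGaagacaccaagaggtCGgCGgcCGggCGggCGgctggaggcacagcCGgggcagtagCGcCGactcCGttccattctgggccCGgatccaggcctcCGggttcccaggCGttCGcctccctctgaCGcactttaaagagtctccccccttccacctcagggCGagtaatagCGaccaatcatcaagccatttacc
The Foxl2 window held 22 CpG dinucleotides and 70.8% G and C, and the Emx2 window 24 and 67.2%, against medians of 6 and 52.4% over 32851 RefSeq windows of this length. Fewer CpG dinucleotides than in the Foxl2 window were found in 85.2% of all windows, and fewer than in the Emx2 window in 88.0%. The RefSeq table held windows for 6 of the 10 members, 7 windows in all, and none for Irx5, Lgr5, Fst and Bmp2. Both strands of the 7 windows were searched for 6 short motifs. These were TGTGGT of RUNX factors, CTTTGAT of TCF and LEF factors, AAGGTCA of NR5A1, GTAAACA of forkhead factors, AGATAA of GATA factors and the E-box CAGCTG. None of the 6 was found in the 7 windows. They occurred in 14.0%, 3.21%, 4.08%, 3.17%, 9.99% and 13.0% of all windows, in the order named. No match says only that these letters are not in these windows.

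The first question was whether pregranulosa genes differed between knockout and heterozygous ovaries at P0. In the authors' deposited table, DESeq2 called 0 of the 10 members in exons at an adjusted p below 0.05. Of the 14606 genes tested at a mean count of at least 10, 0.548% were called. The table holds adjusted p only, so no count at an unadjusted p can be given, and no other tool could be run. Folds of the 10 members lay between -0.10 and 0.36 on the log2 scale, with 7 above 0. Their median was 0.04, against a median of 0.00 and 51.8% of genes above 0 over all genes at a mean count of at least 10. For every member the authors' deposited table gives 1.00 as the adjusted p. The smallest fold that was called among genes with mean counts from 100 to 1000 was 0.54 in size, with 54 of 8339 such genes called, so a smaller difference in the members was not shown to be present or absent.

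Of the ligands, Wnt4, which directs supporting cells to the ovarian path, had a mean normalized count of 490 and a log2 fold of 0.03, above 59.3% of genes, in the authors' deposited ovary table. Rspo1, an R-spondin that enhances WNT signalling, had a mean of 505 and a fold of -0.08, above 21.6% of genes in the same deposited table. Bmp2, a bone morphogenetic protein made by pregranulosa cells, had a mean of 116 and a fold of -0.02 in the authors' deposited table, above 39.7% of genes. All 3 ligands thus lay well inside the folds of most genes, which ran from -0.21 at the 5th percentile to 0.20 at the 95th.

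Fst, the secreted antagonist, had the highest fold of the 10 members, 0.36 at a mean normalized count of 330, and 124 of 14606 genes had a higher fold in the authors' deposited table. Its adjusted p was 1.00, so it did not pass. Lgr5, a receptor for R-spondins, came next with a fold of 0.26 at a mean count of 246 in the authors' deposited table, where 349 genes were higher. Both folds lay past the 95th percentile of all genes and neither passed the test.

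Among the transcription factors, Foxl2, the granulosa identity factor, had a mean normalized count of 195 and a log2 fold of -0.10, the lowest of the 10 members, above 17.8% of genes in the authors' deposited table. Runx1, which supports granulosa identity beside FOXL2, had a mean of 557 and a fold of 0.21, above 95.7% of genes in that deposited table. Emx2, a homeobox factor of the early gonad, had a mean of 335 and a fold of 0.19 in the authors' deposited table, above 94.2% of genes. The pair of Iroquois factors lay nearer 0: Irx3 had a mean of 114 and a fold of 0.05, and Irx5 a mean of 19.6 and a fold of 0.03, in the authors' deposited table. None of the 5 factors passed the test. Foxl2 and Runx1, which both maintain granulosa identity, had folds on opposite sides of 0.

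**Figure D1:**
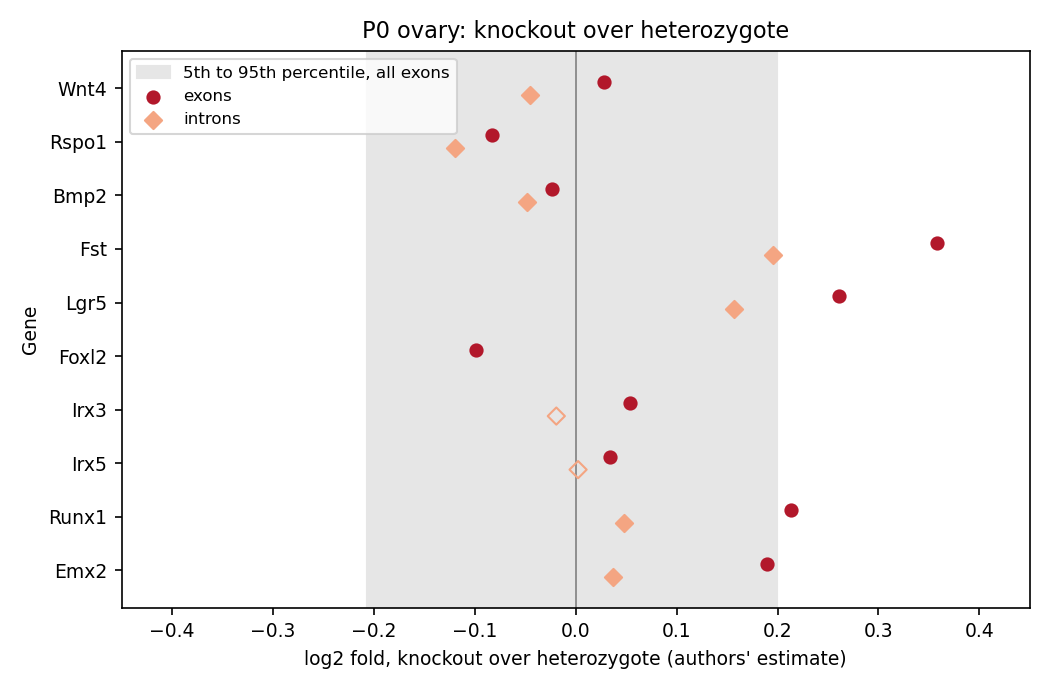
Log2 fold of knockout over heterozygote in P0 ovary for each member (horizontal axis, the authors' estimate) in sense exons (circles) and sense introns (diamonds, open where the mean normalized count is below 10), with the 5th to 95th percentile of all exons shaded. Fst, Lgr5 and Runx1 lie to the right of the shaded range in exons, and the other 7 members inside it.

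Introns give a second reading of the same genes, since total RNA holds unspliced transcripts. Of the 9 members listed, 7 reached a mean normalized count of at least 10 in ovary introns, and 0 of these 7 were called by DESeq2 in the authors' deposited table, against 0.279% of 12915 genes tested. Fst introns had a fold of 0.20 and Lgr5 introns 0.16 in the authors' deposited table, on the same side of 0 as their exons. Runx1 introns had a fold of 0.05 and Emx2 introns 0.04, both smaller than the exon folds, in that deposited table. Wnt4 introns had -0.05, Rspo1 introns -0.12 and Bmp2 introns -0.05 in the authors' deposited table. The median over the 7 was 0.04, with 4 above 0. Exons of the same 7 members had a median of 0.19, with 5 above 0, and Wnt4 had opposite signs in exons and introns. Exons and introns of a gene come from the same libraries, so their sharing a sign is not independent evidence.

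The share of intronic signal differed between members. For Runx1 the intron count was 3.50 times the exon count in the ovary and for Lgr5 2.92 times, from the mean counts of the authors' deposited table. The ratio was 0.597 for Wnt4, 0.425 for Bmp2, 0.267 for Emx2, 0.230 for Rspo1 and 0.117 for Fst. The members with the highest ratios also span the longest stretches of genome in RefSeq on GRCm38: Runx1 lies on chr16 over 224609 bases and Lgr5 on chr10 over 137467. In the m6A libraries, made from polyadenylated RNA, the ratio was 0.684 for Runx1, 0.741 for Lgr5 and 0.0543 for Rspo1, below the ratio in each total RNA table. Fst went the other way, at 0.161 against 0.117 in the ovary, 0.137 in P8 testis and 0.0939 in P12 testis. No other member reached a mean count of at least 10 in m6A introns. The m6A means pool immunoprecipitates and inputs of all ages, so these ratios do not describe polyadenylated RNA alone.

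The noncoding neighbours, chosen for their position after their values had been seen, were also measured in the ovary. The nearer edge of Foxl2os lies 297 bases before the start of Foxl2. Foxl2os had a mean normalized count of 153 in exons with a log2 fold of -0.14, in the authors' deposited table. Its introns had a mean of 68.5 and a fold of -0.24 in that deposited table. Foxl2 itself stood at -0.10, so the neighbours had the same sign, and none of these features passed the test. The nearer edge of Emx2os, annotated as antisense RNA, lies 55 bases before the start of Emx2. Emx2os had an exon mean of 202 with a fold of 0.03, and an intron mean of 1531 with a fold of 0.08, in the authors' deposited table. In the testes the exons of Foxl2os had means of 2.58 at P8 and 6.03 at P12, and those of Emx2os 11.0 and 14.8, in the authors' deposited tables. Among the members themselves, Irx3 and Irx5 lie 556142 bases apart on chr8.

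Lists of related genes were read in the same way, with all 10 members included in the wider pregranulosa and granulosa list. Of its 25 genes at a mean count of at least 10 in the ovary, DESeq2 called 0 in the authors' deposited table, 18 had a fold above 0 and the median was 0.05. The largest folds were 0.36 for Inha, an inhibin subunit, 0.36 for Fst, and 0.29 for Nr5a1, the steroidogenic factor of the gonadal soma, none of which passed in the authors' deposited table. The WNT and R-spondin list, which holds Wnt4, Rspo1 and Lgr5, had 0 of 45 called, 30 above 0 and a median of 0.05. Axin2, a feedback target of beta-catenin, had a fold of -0.15 in the authors' deposited table, and the secreted WNT inhibitor Sfrp1 one of 0.22. Among other feedback targets in the list, Nkd1 stood at 0.17, Notum at -0.01 and Sp5 at -0.0049 in that deposited table, and none passed. These were chosen like Axin2 after their values were seen. They are not all the feedback targets that the list holds, so no direction of WNT signalling is read from them.

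The BMP, activin and follistatin list, which holds Bmp2 and Fst, had 0 of 36 called in the ovary, 26 above 0 and a median of 0.05. Its largest folds were those of Gdf9, an oocyte growth factor, at -0.48 (adjusted p = 0.137 by DESeq2), Id1, a target of BMP signalling, at -0.45 (adjusted p = 0.441 by DESeq2), and Inhbb, an activin subunit, at 0.37, in the authors' deposited table. The Iroquois, RUNX, EMX and FOXL2 list had 0 of 8 called, 6 above 0 and a median of 0.07. Most of the 8 are the members Foxl2, Irx3, Irx5, Runx1 and Emx2, so the list largely repeats their values. Kit ligand, Kitl, made by granulosa cells, had a fold of 0.24 and did not pass, while its receptor Kit fell by 0.84 (adjusted p = 7.58e-05 by DESeq2) in the authors' deposited table. Kit was the 1 called gene of 11 in the retinoic acid and Kit ligand list. In the cell junction and Notch list 1 of 16 was called, the Notch ligand Jag2, which fell by 0.99 (adjusted p = 3.85e-06 by DESeq2) in the authors' deposited table.

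Marker lists of other cell types, Sertoli cells of the testis included, were read in the ovary beside these results. In the oocyte list 10 of 14 genes fell and 0 rose, with 1 of 14 above 0 and a median of -0.82, led by Nlrp5 at -2.51 and Nobox at -1.79 in the authors' deposited table. The germ cell list had 4 of 9 lower and a median of -0.34. No gene was called in the lists of Sertoli cells (15 of 18 above 0, median 0.16), stroma and theca (14 of 14, 0.19), steroidogenic cells (5 of 5, 0.16), surface epithelium (7 of 9, 0.09), mesonephros (4 of 5, 0.10), endothelium (3 of 6, -0.02), macrophages (3 of 6, -0.01) or erythroid cells (0 of 5, -0.13). The Sertoli and granulosa lists share Amh, Wt1, Gata4 and Fshr, and the surface epithelium list holds the member Lgr5. Whether a shift in cell makeup had a part in the members' folds was not tested. In bulk tissue, fewer cells of a type and less RNA per cell cannot be told apart.

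**Figure D2:**
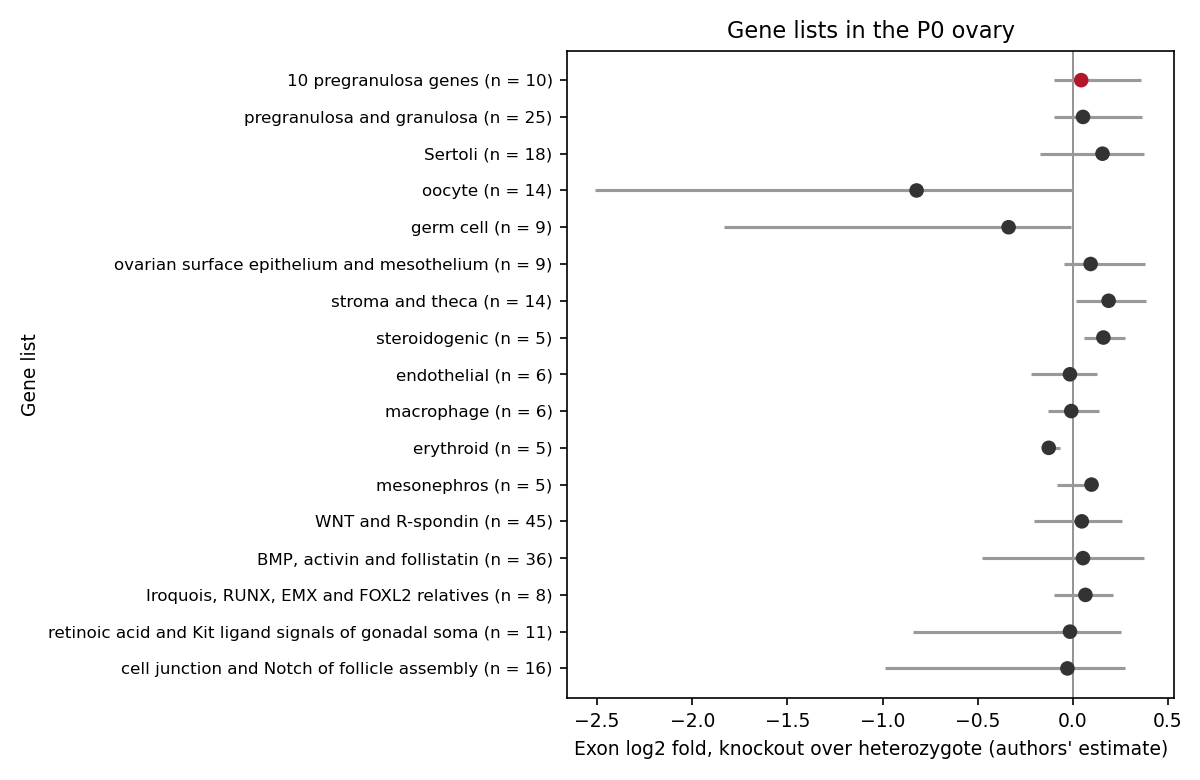
Median (point) and range (line) of the exon log2 folds of each gene list in P0 ovary, knockout over heterozygote, with the number of genes at a mean normalized count of at least 10. The 10 pregranulosa genes (red) have a median of 0.04, and the oocyte and germ cell lists have medians of -0.82 and -0.34.

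Levels were set between ovary and testis as a description, since the tables were normalized separately, and only within 1 gene, since exon lengths were not at hand. Each level is the mean count in parts per 1000000 (ppm) of its table's sense-exon sum. All 8 members with a mean count of at least 10 in every total RNA table were higher in P0 ovary than in testis, by 3.93-fold (Fst) to 45.0-fold (Emx2) over P8 and by 4.39-fold (Fst) to 27.2-fold (Runx1) over P12. Wnt4 stood at 61.5 ppm in the ovary, 4.83 at P8 and 6.06 at P12. Runx1 stood at 69.8, 2.19 and 2.56 ppm in the same order, and Lgr5 at 30.8, 2.03 and 1.53. Bmp2 and Fst were nearest to their testis levels, at 14.6, 3.04 and 3.31 ppm for Bmp2 and 41.4, 10.5 and 9.44 for Fst.

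Foxl2 stood at 24.4 ppm in the ovary and at 0.03 in P8 and 0.15 in P12 testis, where its mean normalized counts of 0.605 and 2.87 in the authors' deposited tables were too low for a ratio. Irx5 was likewise low in testis, at 0.22 and 0.31 ppm against 2.45 in the ovary. Rspo1 stood at 63.3, 7.52 and 10.4 ppm in ovary, P8 and P12, Irx3 at 14.3, 0.70 and 0.63, and Emx2 at 42.0, 0.93 and 2.19. Summed lists did not all follow the members. The wider pregranulosa and granulosa list, which holds all 10 members and genes shared with Sertoli cells such as Amh and Wt1, summed to 1357 ppm in the ovary, 2336 in P8 and 1994 in P12 testis. The Sertoli list summed to 729, 4904 and 4985 ppm in the same order, and the oocyte list to 204, 234 and 208. Some lists of other cells were higher in the ovary, as the members were. Surface epithelium and mesothelium, a list that holds Lgr5, summed to 864, 40.9 and 109 ppm, and mesonephros to 107, 7.36 and 33.1. The erythroid list summed to 4990, 211 and 583 ppm, and stroma and theca to 18055, 7644 and 7979. A higher level in the ovary was thus not particular to the members. The members were picked by name as genes of an ovarian cell type, and the share of all genes higher in the ovary is not given here. The spread between libraries is not known for any of these levels, and age differs between the ovary and the testes as well as sex.

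**Figure D3:**
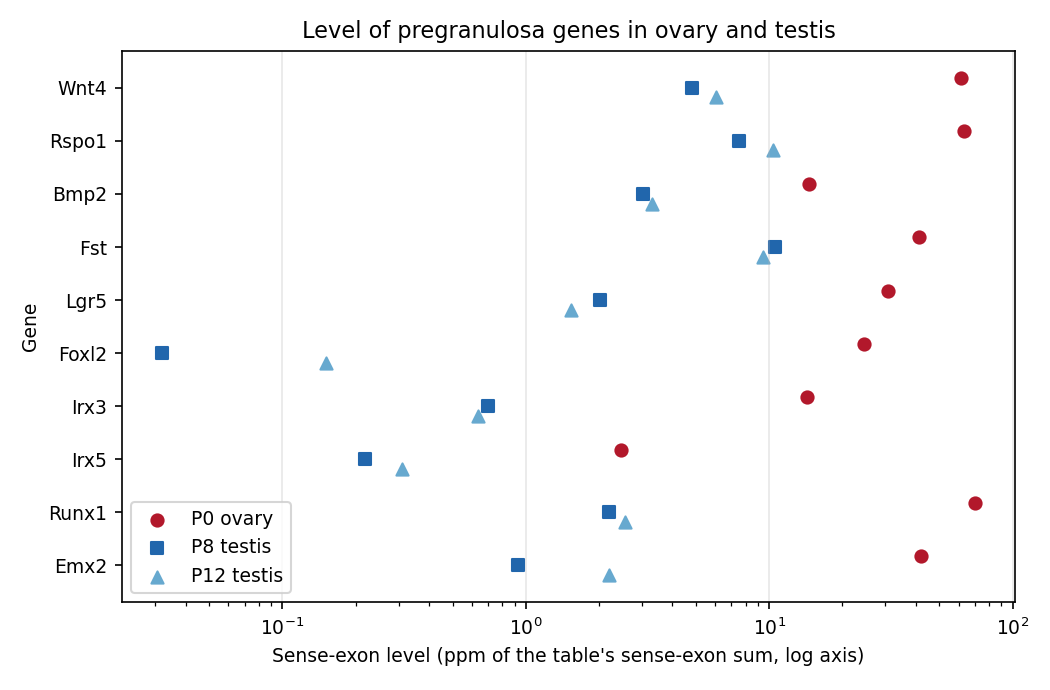
Sense-exon level of each member (horizontal axis, ppm of the table's sense-exon sum, log scale) in P0 ovary (circles), P8 testis (squares) and P12 testis (triangles). The ovary point lies to the right of both testis points for all 10 members, with Foxl2 at 24.4 in the ovary and 0.03 and 0.15 in testis. Lengths differ between genes, so only points of the same gene compare.

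The testis, which has no pregranulosa cells, served as a background for the same genes. At P12, DESeq2 called 0 of the 8 members measured in exons in the authors' deposited table, against 0.881% of 15558 genes tested. Folds of knockout over heterozygote ran from -0.16 for Bmp2 (mean normalized count 62.6, adjusted p = 0.979 by DESeq2) to 0.23 for Fst (mean 179, adjusted p = 0.865 by DESeq2) in that deposited table. The median was 0.08, with 5 of 8 above 0, against 0.01 and 52.1% over all genes. Fst was the member with the highest fold in P12 testis as in P0 ovary, and it passed in neither.

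The other ligands at P12 were Wnt4, with a mean normalized count of 115 and a fold of -0.01, and Rspo1, with 197 and 0.12, in the authors' deposited table. The receptor Lgr5 had a mean of 29.1 and a fold of 0.10 in that deposited table. Of the factors, Irx3 had a mean of 12 and a fold of 0.07, Runx1 48.6 and -0.11, and Emx2 41.6 and 0.12, in the authors' deposited table. Foxl2 and Irx5, at means of 2.87 and 5.85, had no adjusted p there. In introns 0 of 6 members were called, against 1.02% of 13874 genes tested, with the largest folds at Bmp2 (-0.33, adjusted p = 0.739 by DESeq2) and Lgr5 (0.33, adjusted p = 0.776 by DESeq2) in the authors' deposited table. In the WNT and R-spondin list 1 of 47 was called at P12, the WNT antagonist Dkk2, which rose by 0.51 (adjusted p = 0.0324 by DESeq2) in the authors' deposited table.

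At P8, with 2 knockout libraries and 1 library of each control, the authors' DESeq2 called 0 of 8 members over the wild type in exons, against 0.0449% of 15592 genes tested, and 0 of 8 over the heterozygote, against 0.0577%. These comparisons share the 2 knockout libraries, so their values stand side by side. Folds over the wild type ran from -0.03 for Lgr5 to 0.13 for Rspo1, with 7 of 8 above 0 and a median of 0.04, in the authors' deposited table. Those over the heterozygote ran from -0.11 for Bmp2 to 0.08 for Runx1, with 5 of 8 above 0 and a median of 0.03, in that deposited table. Every adjusted p of a member was 1.00.

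By gene at P8, Wnt4 (mean normalized count 91.0) had folds of 0.07 over the wild type and 0.04 over the heterozygote, and Rspo1 (142) had 0.13 and 0.04, in the authors' deposited table. Bmp2 (57.4) had 0.01 and -0.11, Fst (199) 0.07 and 0.04, and Lgr5 (38.2) -0.03 and -0.10, in that deposited table. The factors Irx3 (13.2) with 0.02 and -0.01, Runx1 (41.3) with 0.09 and 0.08, and Emx2 (17.6) with 0.01 and 0.02 lay close to 0 in the authors' deposited table. In introns 0 of 6 were called over the wild type, against 0.0141% of 14173 genes tested, and 0 of 6 over the heterozygote, against 0.0212%. The intron folds of Bmp2 were -0.16 and -0.31, those of Lgr5 -0.12 and -0.22 and those of Runx1 0.18 and 0.34, in the authors' deposited table. Over each control, Bmp2 introns were thus below 0 in P8 and P12 testis alike. Lgr5 introns were below 0 at P8 and above 0 at P12, and none of these folds passed. The P8 controls, 1 library each, also differed from each other. Intron folds of heterozygote over wild type were 0.15 for Bmp2, 0.10 for Lgr5 and -0.17 for Runx1 in the authors' deposited table.

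**Figure D4:**
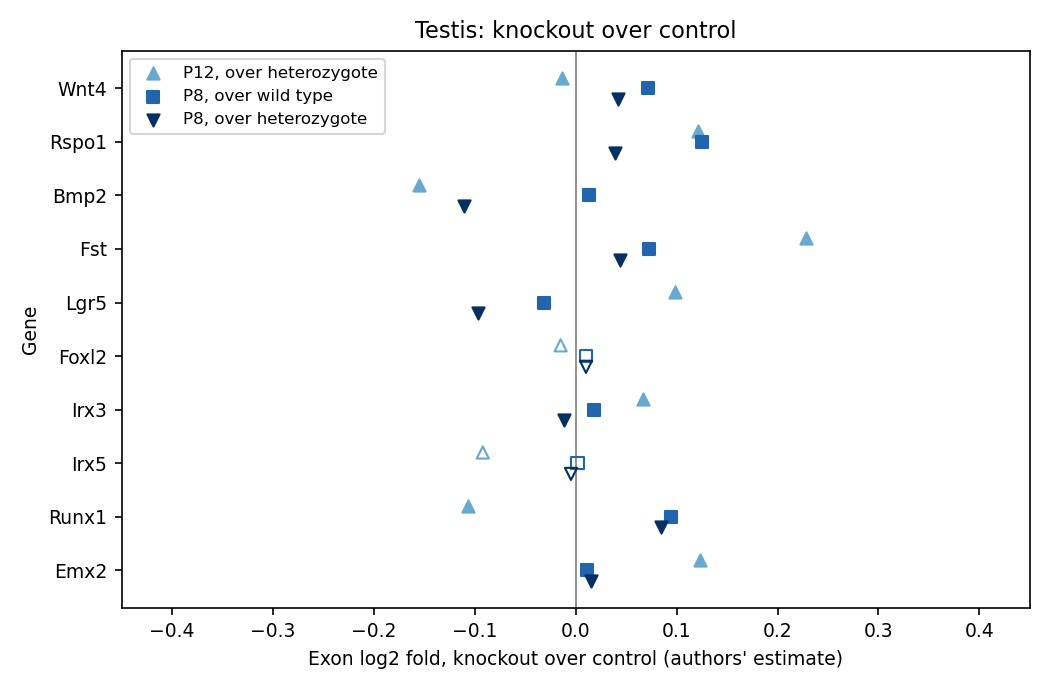
Exon log2 fold of knockout over control (horizontal axis, the authors' estimate) for each member in P12 testis over the heterozygote (light triangles) and in P8 testis over the wild type (squares) and over the heterozygote (dark triangles), with open symbols where the mean normalized count is below 10. All points lie between -0.16 and 0.23.

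Genes whose 4 exon folds (ovary, P12, and P8 over each control) were nearest to those of Foxl2 were found by Euclidean distance among 10040 genes with a mean count of at least 100 in the ovary and 10 in both testis tables. They were Fars2 (distance 0.0207), Oma1 (0.0260), Ythdf2 (0.0274), Vps72 (0.0294) and Kctd20 (0.0305), all computed on log2 folds of the authors' deposited tables. Within a distance of 0.05 lay 66 genes. The folds of Foxl2 in testis rest on mean counts below 10, where the authors' folds lie near 0, and nothing about function follows from the likeness.

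The m6A comparison asked which transcripts of +/+ testis at P8 were recovered with an antibody against m6A. It rests on 1 immunoprecipitate and 1 input, so no replicate checks it, and how the authors' adjusted p obtained a spread is not given in the sources. In the authors' deposited table, 4 of the 9 members measured in exons were higher in the immunoprecipitate at an adjusted p below 0.05, where 26.9% of 15807 genes tested were, and 0 of 9 were lower, where 26.3% of genes were. The median fold of the 9 was 1.15, with 7 above 0, against -0.01 and 49.4% over all genes. The 4 were Irx5, Bmp2, Rspo1 and Wnt4. Members were taken as measured by a mean count that pools immunoprecipitates and inputs of all ages. That mean does not show their level in the P8 libraries alone.

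All 3 ligands were among those higher. Bmp2 had a log2 fold of 2.11 (adjusted p = 1.95e-05 by DESeq2), above 96.8% of genes, in the authors' deposited table. Rspo1 had 1.61 (adjusted p = 0.000284 by DESeq2) and Wnt4 1.15 (adjusted p = 0.0239 by DESeq2) in that deposited table. The antagonist Fst lay on the other side of 0, at -0.99 (adjusted p = 0.060 by DESeq2), as did the receptor Lgr5 at -0.44 (adjusted p = 0.700 by DESeq2), in the authors' deposited table, and neither passed.

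Of the factors, Irx5 had the highest fold of the members, 2.60 (adjusted p = 6.31e-05 by DESeq2), above 99.4% of genes in the authors' deposited table. Irx3 had 1.49 (adjusted p = 0.0521 by DESeq2), Emx2 0.86 (adjusted p = 0.231 by DESeq2) and Runx1 0.65 (adjusted p = 0.431 by DESeq2) in that deposited table. Foxl2 had a fold of 2.18 at a mean normalized count of 8.55 in the authors' deposited table, with no adjusted p. The level of Irx5 also differed between kinds of library: its mean count was 256 in the authors' deposited m6A table, over immunoprecipitates and inputs of all ages, and 4.11 in the P8 table of total RNA. In ppm of each table's sense exons, that was 13.9 against 0.22. Irx5 thus passed the floor on the mean count in the m6A table through the pooled mean, and did not pass it in P8 total RNA. Whether it would pass on the P8 immunoprecipitate and input alone cannot be told, since the table holds no values per library. Other members differed between these tables too: Emx2 stood at 7.79 against 0.93, Foxl2 at 0.46 against 0.03, Irx3 at 2.33 against 0.70 and Bmp2 at 7.89 against 3.04, while Fst was lower at 5.97 against 10.5 and Lgr5 at 1.11 against 2.03.

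Other lists are read here against the shares over all genes tested, 26.9% higher and 26.3% lower. In the WNT and R-spondin list 20 of 47 were higher and 5 lower, with a median of 0.78, led by the WNT receptor Fzd4 at 2.50 and Apcdd1 at 2.22 in the authors' deposited table. In the BMP, activin and follistatin list 14 of 35 were higher and 3 lower, with a median of 0.43, led by Gdf9 at 2.67, Bmp4 at 2.38 and Inhba at 2.34 in that deposited table. The wider pregranulosa and granulosa list had 8 of 25 higher and 3 lower, with a median of 0.56. The Sertoli list had 7 of 20 higher and 6 lower, so the share higher in the granulosa and Sertoli lists lay near that of all genes. The germ cell list had 1 of 9 higher and 7 lower. No intron of a member had an adjusted p in the m6A table.

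**Figure D5:**
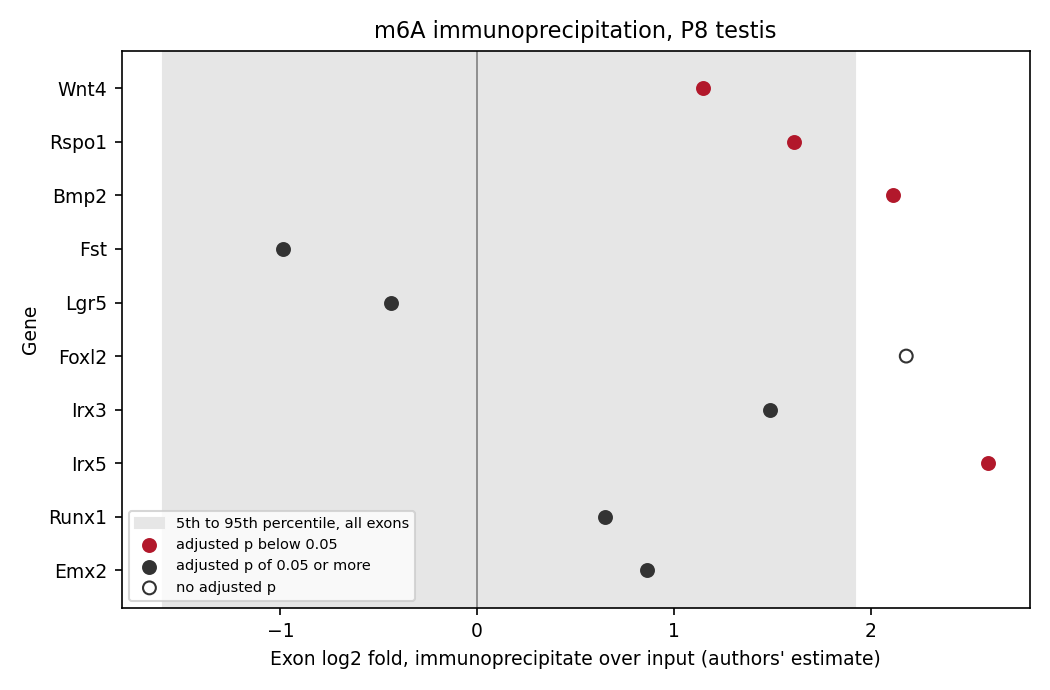
Exon log2 fold of m6A immunoprecipitate over input in P8 testis (horizontal axis, the authors' estimate, 1 library a side) for each member, red where the adjusted p is below 0.05 and open where there is none, with the 5th to 95th percentile of all exons shaded. Irx5, Bmp2, Rspo1 and Wnt4 are red, and Fst and Lgr5 lie below 0.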

How the data were processed

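Total RNA was sequenced from P0 ovary (4 libraries), P8 testis (4) and P12 testis (6), made with a stranded kit after removal of ribosomal RNA, and m6A immunoprecipitates and inputs from testis (10), made from fragmented polyadenylated RNA with a small RNA kit, per the labels' protocols. The 8 Bind-N-Seq libraries and their 8 columns of values per library were not used. The authors deposited, per the file headers, a signal value in the form of 1 mean normalized count per table and feature, a log2 fold and an adjusted p-value. The submitters' processing notes name mm10, DESeq2 and, for the ovary, cutadapt; the aligner, counting, annotation and versions were not given in the sources used here. In the total RNA tables the authors' log2 folds appear drawn toward 0, most at low counts. In the P8 and P12 tables of total RNA the fold columns also carry the words IP and input, and were read as knockout over control. In the m6A table, 2911 features at P12 and 2823 at P20 had a mean count above 0 and no fold, against 0 at P8. The P12 and P20 columns could not be matched to gene names, so the P8 columns alone were used. The adjusted p stand in rising order within each kind of feature at every age, P8 included. For P8, the match to names rests on the pattern of missing folds.

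Groups came from the labels. The authors' adjusted p below 0.05 was the call; no test was fitted here, since the tables hold no values per library. Members and lists were counted at a mean count of at least 10, in sense exons first. Genes tested, wherever a share of them is given, are those at that mean count with an adjusted p. All 10 members are named; from the 16 other lists, genes called in exons (up to 6 a list by size of fold), or the 3 with the largest folds where none was called, could be named, with the 5 genes most like Foxl2. Axin2, Kitl, Ythdc2, Foxl2os and Emx2os fall outside that rule and, with Nkd1, Notum and Sp5, were chosen after their values were seen. The members and lists were chosen with earlier results of these data known. Alternatives were no floor, a floor of 50, introns, thresholds of 0.1 and 0.01, the other control at P8 and, added after seeing the data, 2 scalings of levels. Counting functions were tested on simulated data. Coordinates and promoters are from RefSeq on GRCm38.p6. Python 3.11.15, pandas 2.3.3, numpy 2.4.6 and matplotlib 3.10.9 were used.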

Additional observations from a re-analysis of the deposited data

Results flagged for a closer look

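Antisense features of the members lie outside the comparisons above, and 5 of 18 in the P0 ovary had a signal, a mean normalized count of at least 10, in the authors' deposited table. The introns of Runx1 had an antisense mean of 115 and those of Wnt4 one of 26.1 in the authors' deposited table. Emx2 introns had 15.6, Wnt4 exons 15.1 and Foxl2 exons 11.3 antisense in that deposited table. Their log2 folds of knockout over heterozygote, in the same order, were 0.39, 0.25, 0.41, 0.53 and -0.17, and none passed by the authors' DESeq2. The highest of the other antisense means was 8.35. The submitters' counting rule is not given in the sources used here, so reads from genes on the other strand cannot be told apart from these.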

How the results depend on the processing

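Of 50 values recomputed under the alternatives, 1 median changed sign, 5 counts moved by over 1.5 times, and 44 stayed within the tolerance set, 1.5 times for counts and 1 SD over members for medians. Some of the 44 could not have moved. Where 0 members were called, a stricter threshold or a higher floor can only give 0 again. In the ovary exons all 10 members pass the floor, so leaving it out changes nothing. With introns in place of exons, members above 0 numbered 4 of 7 in P0 ovary (7 of 10 in exons), 2 of 6 in P8 testis over the wild type (7 of 8) and 3 of 4 in the m6A comparison (7 of 9), and the P8 median was -0.049 (0.04 in exons). With a floor of 50 they numbered 2 of 4 at P12 (5 of 8) and 4 of 4 at P8 (7 of 8). A higher floor leaves fewer members by construction. That does not account for introns at P8: over the same 6 members 5 exon folds and 2 intron folds were above 0, with Wnt4, Bmp2 and Fst of opposite sign, and the cause was not tested. The tolerance for medians is wide, since no replicate SD exists: the P12 median was 0.03 with no floor, 0.05 with a floor of 50 and 0.15 in introns (0.08), and the P8 median 0.02 with no floor, 0.07 with a floor of 50 and 0.03 over the heterozygote (0.04). No member was called in a total RNA table under any setting run, while the m6A count was 6 at a threshold of 0.1 (5 higher and, with Fst, 1 lower) and 3 at 0.01 (all higher), against 4, all higher. All 8 measured members were higher in ovary than in testis under all 3 scalings, by 2.96 to 33.8 times over P8 and 2.88 to 17.9 times over P12 when scaled to all features, and by 4.29 to 49.1 and 4.82 to 29.9 times when scaled to the median gene. Calls in m6A introns could not be given, since no member intron has an adjusted p there. Over the same 4 members, 2 exon folds and 3 intron folds were above 0 in the m6A comparison. Rspo1, Fst and Lgr5 had opposite signs there, and the cause was not tested. Leaving out each replicate was not run. No paired analysis was possible because the tables hold no values per library. Depth per library is unknown here, and low means limit what Foxl2 and Irx5 show in testis.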
